A study of Mus musculus with 12 samples.

Results

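The insulin-like growth factor (IGF) axis was followed through 10 of the 45777 genes in the deposited mouse gene table. The members were found by symbol: the ligands Igf1 and Igf2, the receptor Igf1r, the binding proteins Igfbp2, Igfbp3, Igfbp4, Igfbp5 and Igfbp7, and the adaptors Irs1 and Irs2. They were measured by RNA sequencing in Hepa1-6 cells, a mouse hepatoma line, and in primary liver sinusoidal endothelial cells (LSECs), the fenestrated endothelium of the liver's capillaries. There were 4 groups of 3 libraries each: Hepa1-6 cells alone, Hepa1-6 cells co-cultured with LSECs, LSECs alone, and LSECs co-cultured with Hepa1-6 cells. Co-cultured cells were kept apart by a membrane with 3 µm pores, with 100000 Hepa1-6 cells in the insert above 500000 LSECs, so that they shared medium but did not lie in 1 layer. All cultures stood for 24 h in medium with 2% serum. No genotype, drug or dose distinguished the groups, and the LSEC isolation is not given in the sources used here. The labels do not say whether replicates came from separate cultures or isolations, so the p-values measure the spread between these libraries, which may be technical.

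IGF1 and IGF2 are secreted growth factors that act mainly through the tyrosine kinase receptor IGF1R, which passes the signal to PI3 kinase and AKT through the adaptors IRS1 and IRS2. In blood and tissue fluid most of the ligand is held by IGF-binding proteins, which prolong its life and control its access to the receptor. The liver is the main source of circulating IGF1, and IRS2 is known there as an insulin-responsive adaptor whose transcript rises in fasting.

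Total estimated counts were 32761492 to 48870698 per library, so that a count of 0 allows up to 0.0614 to 0.0916 CPM (counts scaled to a common library total), a limit that covers counting error only. The sequenced cell was checked with marker lists of 10 genes. In LSEC libraries all 10 sinusoidal endothelial markers reached 1 CPM, with sums of 7570 to 11500 CPM alone and 9270 to 12700 CPM in co-culture, against at most 39.5 CPM in any Hepa1-6 library, where Lyve1, Clec4g, Cdh5 and Tek had no count. The hepatoma and hepatocyte list summed to 4200 to 4340 CPM in Hepa1-6 cells alone and 4870 to 5270 CPM in co-culture, although its member Ahsg had no count, and to at most 59.5 CPM in LSECs. LSEC libraries also held all 10 macrophage and Kupffer cell markers. The stellate cell and fibroblast list summed to 1900 to 1970 CPM in Hepa1-6 libraries, where Lrat and Acta2 had no count and Dcn alone gave 1948 ± 12.8 CPM in mono-culture. LSEC replicate 1 of both cultures stood apart from replicates 2 and 3. The deviations of same-numbered LSEC libraries from their group means correlated at 0.892, 0.683 and 0.716. Replicates 2 and 3 correlated as well when crossed (0.688 and 0.743), so the numbers set only replicate 1 apart. LSEC tests are therefore also given with the replicate number as a block.

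The libraries of the 2 cells differed in the level of most members, as the plot of levels shows. Igfbp4 was abundant in both, and Irs2 was shared. Igf1, the endocrine and paracrine ligand (NCBI Gene 16000, mm10 chromosome 10, 87858265-87937047, plus strand), had no count in any of the 6 Hepa1-6 libraries. In LSECs alone it stood at 31.6, 34.4 and 30.7 CPM, or at least 1367-fold higher when the Hepa1-6 group is set at 3 counts in all, the most that its zeros allow. Igf2, the fetal ligand that is imprinted in mice (chromosome 7, 142650768-142666816, minus strand), was a low transcript of the hepatoma cells, at 7.01, 7.43 and 6.44 CPM alone against 0.344, 0.481 and 0.258 CPM in LSECs alone. Each ligand was thus nearly or wholly missing from the libraries of the other cell. The LSEC libraries also held macrophage, Kupffer and stellate cell markers. Which cells in them carried Igf1, or the other members found there, was not tested.

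Igf1r, the signalling receptor (chromosome 7, 67952257-68233668, plus strand), was an LSEC transcript. Its levels were 79.4, 141 and 143 CPM in LSECs alone, and Hepa1-6 cells alone had only 12, 12 and 7 counts, a mean of 0.249 ± 0.0864 CPM (SD, n = 3). The fitted difference was a log2 fold change of 8.94, or 491-fold (adjusted p = 8.82e-06, edgeR's quasi-likelihood test). The adaptor Irs1, a scaffold phosphorylated by the receptor (chromosome 1, 82233105-82291439, minus strand), had the opposite distribution: 149, 146 and 148 CPM in Hepa1-6 cells alone and 0.687, 2.26 and 2.41 CPM in LSECs alone, 83.1-fold lower (adjusted p = 5.65e-05). Irs2, the other main adaptor (chromosome 8, 10984681-11008929, minus strand), was shared, at 31.6, 29.5 and 29.6 CPM in Hepa1-6 cells alone and 10.7, 22.3 and 22.4 CPM in LSECs alone. Every Hepa1-6 library was above every LSEC library, but the log2 difference of -0.70 (SE 0.29) did not pass the test (adjusted p = 0.0688). DESeq2 called it (adjusted p = 0.0379), as did the fit without replicate 1 of LSECs alone (log2 difference -0.44, adjusted p = 3.34e-05).

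Among the binding proteins, Igfbp7, a low-affinity binder and a vascular matrix protein (chromosome 5, 77349240-77408045, minus strand), was the LSEC transcript, at 2298, 1375 and 1379 CPM in LSECs alone against 0.571, 0.838 and 0.356 CPM in Hepa1-6 cells alone (2862-fold, adjusted p = 6.49e-06). Igfbp4, an inhibitory binder that the protease PAPP-A cleaves (chromosome 11, 99040005-99052655, plus strand), was abundant in Hepa1-6 cells alone, at 1748, 1785 and 1829 CPM. It was 9.47-fold lower in LSECs alone, at 241, 171 and 151 CPM (adjusted p = 2.66e-05). Igfbp3, the main carrier of circulating IGFs (chromosome 11, 7206086-7215498, minus strand), stood at 432, 438 and 445 CPM in Hepa1-6 cells alone and was 27-fold lower in LSECs alone, at 15.9, 16.7 and 15.6 CPM (adjusted p = 1.77e-06). Igfbp5, a matrix-bound binder (chromosome 1, 72858065-72874865, minus strand), had no count in Hepa1-6 cells and only 8, 43 and 64 counts in LSECs alone. Its neighbour Igfbp2, a binder that healthy liver secretes (chromosome 1, 72824480-72852474, plus strand), also had no count in Hepa1-6 cells, and 8, 0 and 4 counts in LSECs alone.

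**Figure D1:**
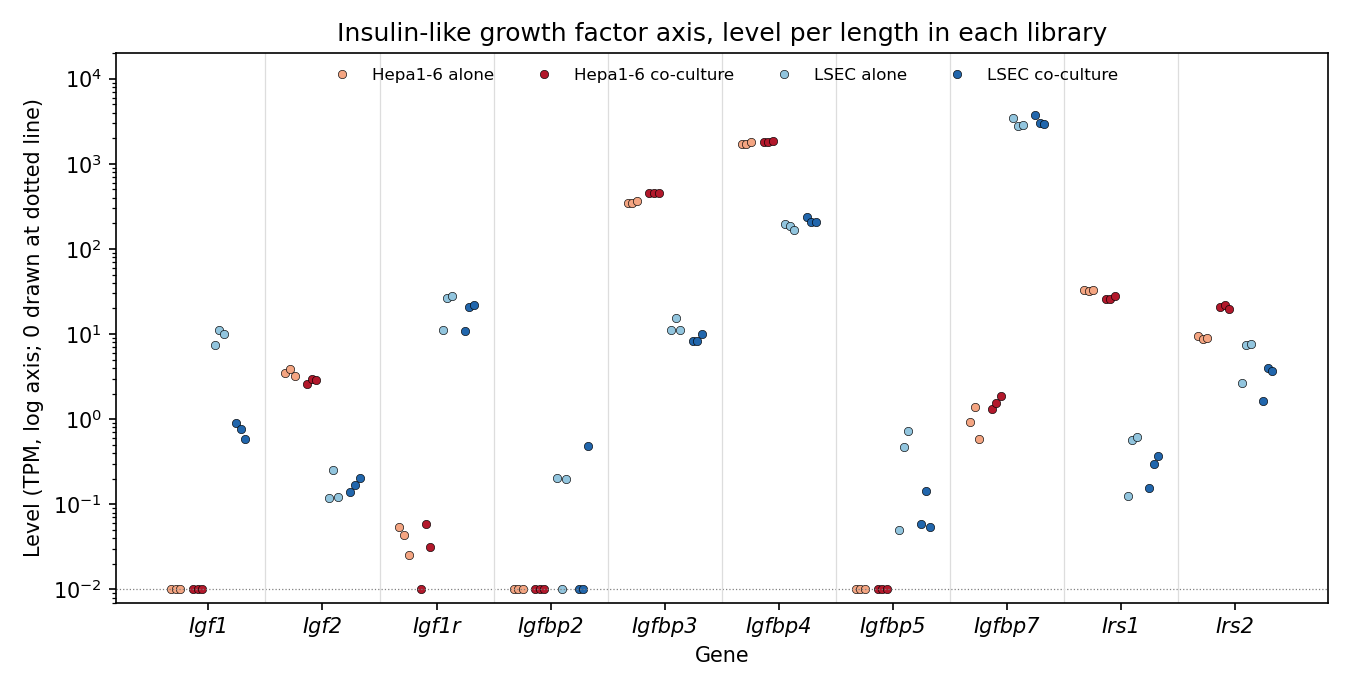
Level of each member per transcript length in each library, as the authors' TPM on a log axis, for the 4 groups of 3 libraries; points are libraries, and values of 0 lie on the dotted line. Igf1, Igf1r and Igfbp7 sit high in LSECs, and Igf2, Igfbp3, Igfbp4 and Irs1 sit high in Hepa1-6 cells.

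Of the 8 members that could be tested between the mono-cultures, 3 were higher in LSECs (Igf1, Igf1r and Igfbp7) and 4 were lower (Igf2, Igfbp3, Igfbp4 and Irs1). Of all 16411 genes tested there, 70% were called, 37.2% higher and 32.8% lower, so this share is near the background and says nothing particular to the axis. Igfbp2 and Igfbp5 were too low to be tested.

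Per unit of transcript length, given by the authors' TPM, Hepa1-6 cells alone ranked Igfbp4 first at 1742 TPM, then Igfbp3 at 354, Irs1 at 32.9, Irs2 at 9.09 and Igf2 at 3.54. LSECs alone ranked Igfbp7 first at 3038 TPM, then Igfbp4 at 183, Igf1r at 21.9, Igfbp3 at 12.6 and Igf1 at 9.52, with Irs2 at 5.95. In LSECs alone the ranges over libraries overlapped between Igf1r and Igfbp3, between Igfbp3 and Igf1, and between Igf1 and Irs2. Within each of those libraries the order nevertheless held, with Igf1r at rank 3, Igfbp3 at 4, Igf1 at 5 and Irs2 at 6. The order was not tested. As shares of the summed TPM of the 5 binding proteins, Igfbp4 made up 82.9% to 83.3% in Hepa1-6 cells alone and Igfbp3 16.6% to 17.1%, whereas Igfbp7 made up 93.2% to 94.4% in LSECs alone. In co-cultured Hepa1-6 cells the share of Igfbp3 was 19.9% to 20.3%, above every library of the mono-culture. Igfbp1, which is not among the members, was left out of these sums. It stood at 191, 186 and 194 TPM in Hepa1-6 cells alone and at 356, 331 and 290 TPM in co-culture. The shares therefore hold only among the 5 binding proteins summed. These are shares of transcripts and not of secreted protein.

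**Figure D2:**
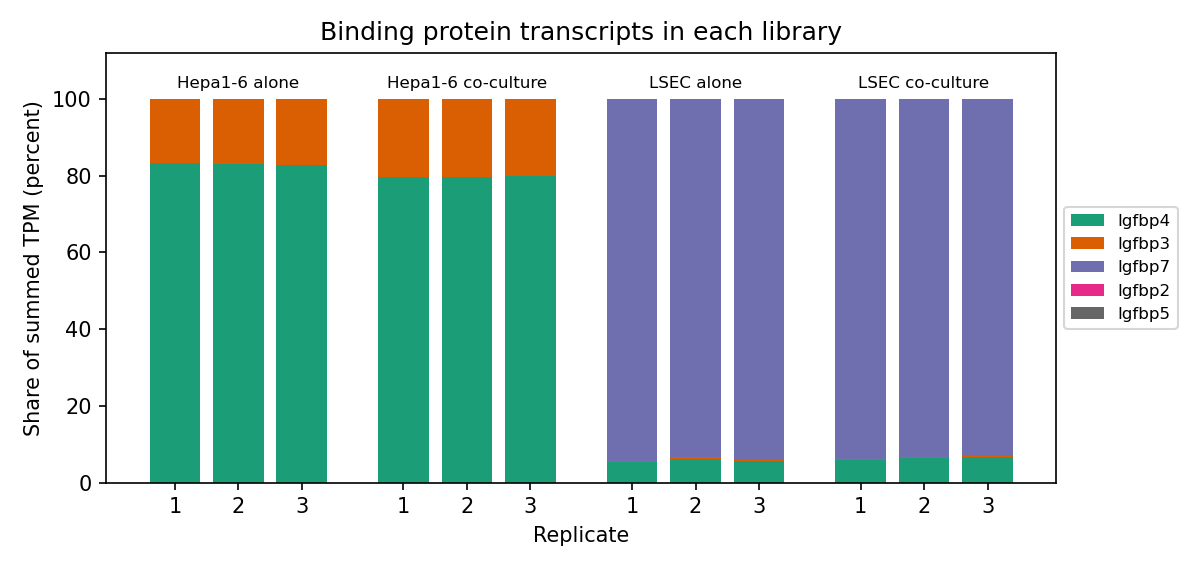
Share of each binding protein in the summed TPM of Igfbp2, Igfbp3, Igfbp4, Igfbp5 and Igfbp7, in percent, with 1 bar for each library. Igfbp1, which is not among the members, is not in the sum. Igfbp4 and Igfbp3 fill the Hepa1-6 bars and Igfbp7 fills at least 93% of each LSEC bar; the Igfbp3 band is wider in co-cultured Hepa1-6 cells.

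The promoters of 4 members that separate the cells or move in co-culture are shown to make the genes concrete. Each is the RefSeq window of 300 bases on GRCm38.p6, from 250 bases before to 50 after the start, read 5′ to 3′ on the gene's strand. The windows are Irs2 (chr8:11008880-11009179), Irs1 (chr1:82291390-82291689), Igfbp7 (chr5:77407996-77408295) and Igfbp3 (chr11:7213874-7214173), all on the minus strand. Capitals mark matches to any of 8 motifs searched on both strands: the TATA box TATAAA, the GC box GGGCGG, the cyclic AMP element TGACGTCA, the forkhead motif GTAAACA, the STAT motif TTCNNNGAA, the AP-1 motif TGANTCA, the hypoxia response core ACGTG and the E-box CACGTG, which contains that core.
Irs2: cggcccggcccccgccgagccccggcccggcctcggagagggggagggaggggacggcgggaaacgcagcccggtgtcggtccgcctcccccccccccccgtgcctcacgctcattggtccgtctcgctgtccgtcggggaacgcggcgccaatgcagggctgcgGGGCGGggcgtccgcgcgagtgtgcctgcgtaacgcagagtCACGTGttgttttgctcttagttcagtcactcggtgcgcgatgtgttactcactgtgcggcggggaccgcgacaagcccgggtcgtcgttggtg
Irs1: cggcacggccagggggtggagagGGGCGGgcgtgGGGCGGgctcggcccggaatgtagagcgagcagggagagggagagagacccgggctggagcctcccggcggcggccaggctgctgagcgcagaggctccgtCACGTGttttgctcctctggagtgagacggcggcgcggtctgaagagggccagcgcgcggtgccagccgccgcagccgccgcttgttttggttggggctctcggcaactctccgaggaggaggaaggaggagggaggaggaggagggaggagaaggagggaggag
Igfbp7: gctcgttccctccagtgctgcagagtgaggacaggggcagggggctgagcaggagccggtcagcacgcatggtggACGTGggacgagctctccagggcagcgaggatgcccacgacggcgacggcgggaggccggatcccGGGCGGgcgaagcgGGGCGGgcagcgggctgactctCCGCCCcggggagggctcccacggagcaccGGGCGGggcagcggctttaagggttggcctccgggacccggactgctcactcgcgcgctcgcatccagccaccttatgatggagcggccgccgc
Igfbp3: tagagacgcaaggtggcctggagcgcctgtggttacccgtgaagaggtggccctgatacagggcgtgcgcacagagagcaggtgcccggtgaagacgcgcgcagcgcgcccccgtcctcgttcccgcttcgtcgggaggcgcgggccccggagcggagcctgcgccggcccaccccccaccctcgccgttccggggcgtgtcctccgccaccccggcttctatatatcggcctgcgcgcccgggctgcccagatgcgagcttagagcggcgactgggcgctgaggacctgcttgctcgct
Both adaptor promoters held the E-box CACGTG, Irs2 at position -44 and Irs1 at -115 from the start, and each also held GGGCGG. The Igfbp7 window held 4 GC boxes and 1 ACGTG, and the Igfbp3 window held none of the 8 motifs. Of all 32817 RefSeq windows of this length, 7.15% held CACGTG, 35.6% held GGGCGG and 19.6% held ACGTG. The matches describe letters in these windows and were not tied to any binding.

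The first comparison asked how Hepa1-6 cells changed when LSECs shared their medium. The adaptor Irs2 and the carrier Igfbp3 rose, and the adaptor Irs1 and the ligand Igf2 fell. Of the 10 members, 3 had no count in Hepa1-6 cells (Igf1, Igfbp2 and Igfbp5), 7 were tested, and 4 passed the test at an adjusted p of 0.05. Of all 14796 genes tested, 15.5% were called, 8.5% higher and 7.03% lower. A fit of all 12 libraries together, in which LSEC libraries share in the estimate of the spread, called 41 genes between the Hepa1-6 groups and none of the members. In bulk RNA, fewer cells of a type and less RNA per cell cannot be told apart.

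Irs2 stood at 31.6, 29.5 and 29.6 CPM in Hepa1-6 cells alone and at 69.4, 73.5 and 63.8 CPM in co-culture. Each co-culture library was above each mono-culture library. Irs2 rose 2.28-fold, a log2 fold change of 1.19 (SE 0.05, adjusted p = 7.21e-13, edgeR's quasi-likelihood test). Irs1 stood at 149, 146 and 148 CPM alone and at 115, 117 and 120.0 CPM in co-culture. Its groups did not overlap either, and it fell by 0.33 on the log2 scale (SE 0.03, adjusted p = 8.4e-08). The 2 adaptors thus changed in opposite directions. Per transcript length, Irs1 stood at 32.9 TPM and Irs2 at 9.09 TPM in Hepa1-6 cells alone, and they stood at 26.5 and 21.0 TPM in co-culture, with Irs1 above Irs2 in every library.

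Igfbp3 stood at 432, 438 and 445 CPM alone and at 554, 552 and 539 CPM in co-culture. The groups did not overlap, and Igfbp3 rose 1.25-fold (log2 fold change 0.32, SE 0.02, adjusted p = 3.75e-09). Igfbp4, the more abundant binder, stood at 1748, 1785 and 1829 CPM alone and at 1807, 1851 and 1815 CPM in co-culture. These ranges overlapped, and its log2 fold change of 0.03 did not pass the test (adjusted p = 0.44).

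Igf2 stood at 7.01, 7.43 and 6.44 CPM alone and at 5.16, 5.29 and 5.11 CPM in co-culture. The groups did not overlap, and Igf2 fell by 0.42 on the log2 scale (SE 0.11, adjusted p = 0.00964). This call depended on the processing: it was lost by limma on log2(TPM + 1) (adjusted p = 0.143) and without replicate 2 of the mono-culture (adjusted p = 0.0615). Igfbp7 was low, at 0.571, 0.838 and 0.356 CPM alone and 0.787, 0.877 and 1.08 CPM in co-culture, and did not pass the test (log2 fold change 0.64, SE 0.34, adjusted p = 0.238). Igf1r had 12, 12 and 7 counts alone and 0, 14 and 9 in co-culture, and likewise did not pass (adjusted p = 0.793). No overlap between the groups was seen for 4 of the tested members (Igf2, Igfbp3, Irs1 and Irs2), a property that 30.6% of all tested genes shared.

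**Figure D3:**
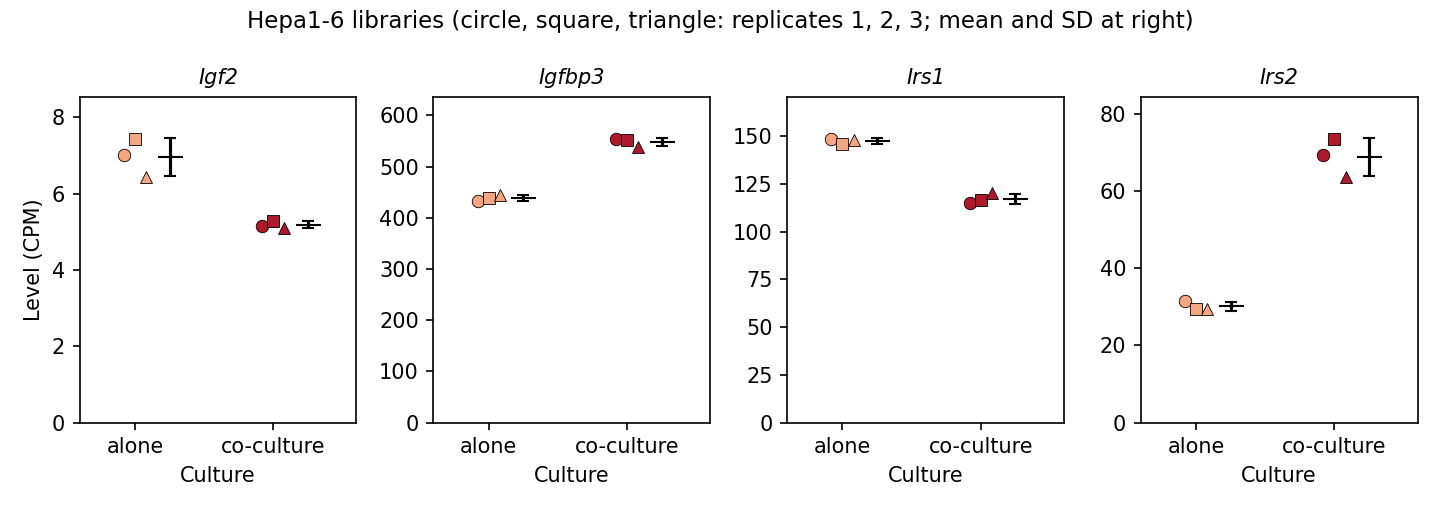
CPM of the members in each Hepa1-6 library, alone and in co-culture, with a panel for each of the 4 members called; points are libraries, and the bars beside them are the mean and SD (n = 3). Irs2 and Igfbp3 lie higher and Irs1 and Igf2 lower in all 3 co-culture libraries.

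The second comparison asked how LSECs changed when Hepa1-6 cells shared their medium. Igf1 fell from 31.6, 34.4 and 30.7 CPM alone to 3.67, 2.52 and 1.97 CPM in co-culture, or from 1474, 1217 and 1070 counts to 151, 91 and 68. Every co-culture library was far below every mono-culture library. The fall was 12.1-fold, a log2 fold change of -3.60 (SE 0.27, adjusted p = 0.00227, edgeR's quasi-likelihood test). Leaving out any single library gave log2 fold changes of -3.89 to -3.41, with adjusted p-values of 0.00264 to 0.0257. Igf1 was the only member called of 9 tested, where 3.09% of all 15256 genes were called and 0.911% were called lower. That share is 139 genes, and 17 to 137 genes were called lower when a library was left out, with the fewest without co-culture replicate 2 or 3.

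Markers of other liver cells were present in the same libraries. The summed macrophage and Kupffer cell markers, all 10 of them at or above 1 CPM, were 1870 to 2870 CPM in LSECs alone and 2850 to 3980 CPM in co-culture, while the median log2 fold change of the list was -0.08. Its members went both ways, shown here by 6 picked after their values were seen. Mean levels alone and in co-culture were 603 and 1141 CPM for Lyz2, 575 and 993 CPM for Marco and 119 and 533 CPM for Adgre1. They were 428 and 128 CPM for Cd5l, 69.5 and 17.6 CPM for Vsig4 and 170 and 107 CPM for C1qa. The summed stellate cell and fibroblast markers were 113 to 143 CPM alone, with 8 of 10 at 1 CPM, and 102 to 117 CPM in co-culture, with 9 of 10, and the median log2 fold change of that list was -0.32. The test called 1 macrophage marker higher and 2 lower and 0 stellate markers, where 3.09% of all genes were called. With the replicate block it called 4 macrophage markers higher and 3 lower, and 3 stellate markers higher and 4 lower. The block called 33.3% of all genes. No marker of either list was at 0 in a group of LSECs. Their part in the fall of Igf1 was not tested.

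The block by replicate number, in which each co-culture library is set against the mono-culture library of its number, called 6 members where the unblocked test called 1. With it 33.3% of all tested genes were called, 16.7% higher and 16.6% lower. Igf1 then had a log2 fold change of -3.62 (SE 0.15, adjusted p = 4.1e-07). With replicates 2 and 3 alone, 8 members passed, every tested one but Igf2, against 36.4% of all genes, and the Igf1 log2 fold change was -3.88.

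Irs2 stood at 10.7, 22.3 and 22.4 CPM in LSECs alone and at 6.26, 12.4 and 11.4 CPM in co-culture. The groups overlapped because replicate 1 was low in both, while each co-culture library was below the mono-culture library of its number. The log2 fold change was -0.92 without the block (SE 0.37, adjusted p = 0.342) and -0.91 with it (SE 0.09, adjusted p = 9.97e-05). Igfbp3 stood at 15.9, 16.7 and 15.6 CPM alone and at 11.4, 9.45 and 11.1 CPM in co-culture. Its groups did not overlap, and the log2 fold change was -0.64 (SE 0.14, adjusted p = 0.0822), or -0.64 with the block (SE 0.10, adjusted p = 0.00151). DESeq2 without the block also called it (adjusted p = 0.00945). Igf1 and Igfbp3 were the members without overlap, a property of 21.6% of all genes tested in LSECs.

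Igf1r stood at 79.4, 141 and 143 CPM in LSECs alone and at 73.1, 113 and 120.0 CPM in co-culture. The groups overlapped, and its log2 fold change of -0.28 (SE 0.29, adjusted p = 0.844) passed with the block (-0.27, SE 0.05, adjusted p = 0.00385) and with replicates 2 and 3 alone (-0.31). Igfbp4 stood at 241, 171 and 151 CPM alone and at 280, 195 and 199 CPM in co-culture. It was higher in each same-numbered pair, with a log2 fold change of 0.21 (SE 0.25, adjusted p = 0.878), or 0.22 with the block (SE 0.05, adjusted p = 0.0116). Igfbp5 had 8, 43 and 64 counts alone and 8, 14 and 5 in co-culture, and its log2 fold change of -2.15 (adjusted p = 0.344) was -1.89 with the block (SE 0.62, adjusted p = 0.0465). That call rests on few counts, and replicate 1 had the same count in both cultures.

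Igfbp7 was at 2298, 1375 and 1379 CPM alone and at 2409, 1529 and 1478 CPM in co-culture. It passed neither without the block (log2 fold change 0.055, adjusted p = 0.988) nor with it (adjusted p = 0.299). Irs1 was at 0.687, 2.26 and 2.41 CPM alone and at 0.801, 1.28 and 1.57 CPM in co-culture, and passed neither test (adjusted p = 0.788, or 0.197 with the block). Igf2 was at 0.344, 0.481 and 0.258 CPM alone and at 0.389, 0.388 and 0.435 CPM in co-culture (adjusted p = 0.969). Igfbp2, with 8, 0 and 4 counts alone and 0, 0 and 11 in co-culture, was not tested.

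Replicate 1 deviated to a different extent in each member. In LSECs alone its CPM was 0.56 times the mean of the other two libraries for Igf1r (a transcript of 11978 bases), 0.294 times for Irs1 (9163 bases) and 0.48 times for Irs2 (6794 bases). It was 1.49 times that mean for Igfbp4 (2094 bases) and 1.67 times for Igfbp7 (1120 bases). In co-culture the ratios were 0.626 for Igf1r, 0.564 for Irs1, 0.526 for Irs2, 1.42 for Igfbp4 and 1.6 for Igfbp7. Igf1, whose listed transcripts have 6816 to 7543 bases, was at 0.972 times alone and 1.63 times in co-culture, so the ratios did not follow length in every member. Igfbp3 (2447 bases) was at 0.987 and 1.11 times, Igf2 at 0.929 and 0.944 times, and Igfbp5, with few counts, at 0.113 and 0.729 times. The part of RNA quality in these ratios was not tested.

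**Figure D4:**
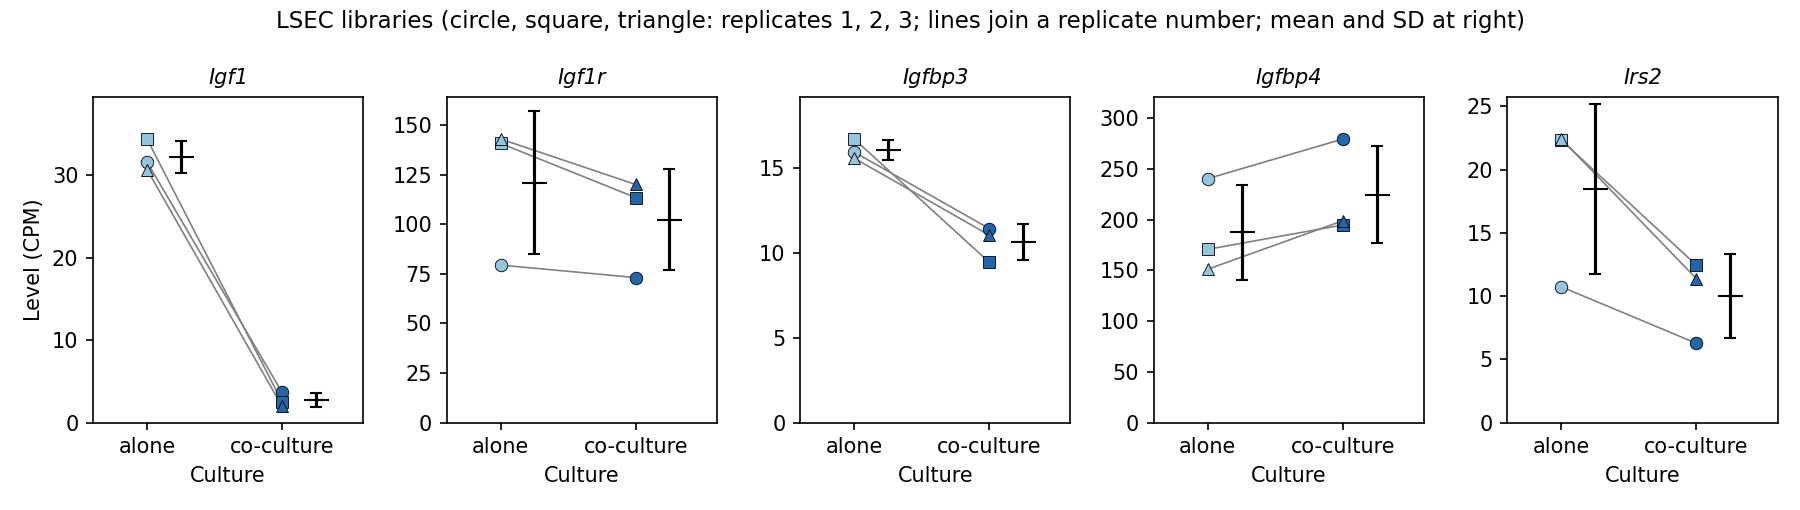
CPM of Igf1, Igf1r, Igfbp3, Igfbp4 and Irs2 in each LSEC library, alone and in co-culture; lines join libraries of the same replicate number, and the bars are the mean and SD (n = 3). All 3 lines of Igf1, Igf1r, Igfbp3 and Irs2 slope down, and those of Igfbp4 slope up.

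The third question was whether the co-culture effect differed between the cells, tested as an interaction over the 12 libraries. It differed for Igfbp3 and Irs2, whose levels went up in Hepa1-6 cells and were lower in co-cultured LSECs. Neither fall in LSECs passed edgeR's unblocked test by itself (adjusted p = 0.0822 for Igfbp3 and 0.342 for Irs2). The fit of all 12 libraries called neither rise in Hepa1-6 cells. The interaction thus shows a difference of effects and not a change in each cell. For Irs2 the LSEC effect minus the Hepa1-6 effect was -2.08 on the log2 scale (SE 0.41, adjusted p = 0.0254), and for Igfbp3 it was -0.93 (SE 0.12, adjusted p = 0.00248). The interaction fit pools the spread of both cells for each gene. Its SE for Igfbp3 was below the SE of 0.14 for the LSEC effect alone. Of the members 9 passed the filter on low counts, 7 could be estimated and these 2 were called, where 2.35% of all 17346 genes tested were called and 0.951% were called lower. Irs2 lost its call by limma on log2(TPM + 1) (adjusted p = 0.0536) and on log2(TPM + 0.1) (adjusted p = 0.101). Irs2 also lost it in 8 of the 12 fits that left out a library, whose adjusted p-values were 0.00158 to 0.0824. Igfbp3 kept its call in all 12 (0.0017 to 0.0141). With the block the difference was -2.07 for Irs2 (adjusted p = 1.13e-06) and -0.93 for Igfbp3 (adjusted p = 6.43e-05). The block also called Igfbp4, at 0.23 (adjusted p = 0.0231), with 17.3% of all genes called. For Igf1 and Igfbp5 the difference could not be estimated, since Hepa1-6 libraries had no count.

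**Figure D5:**
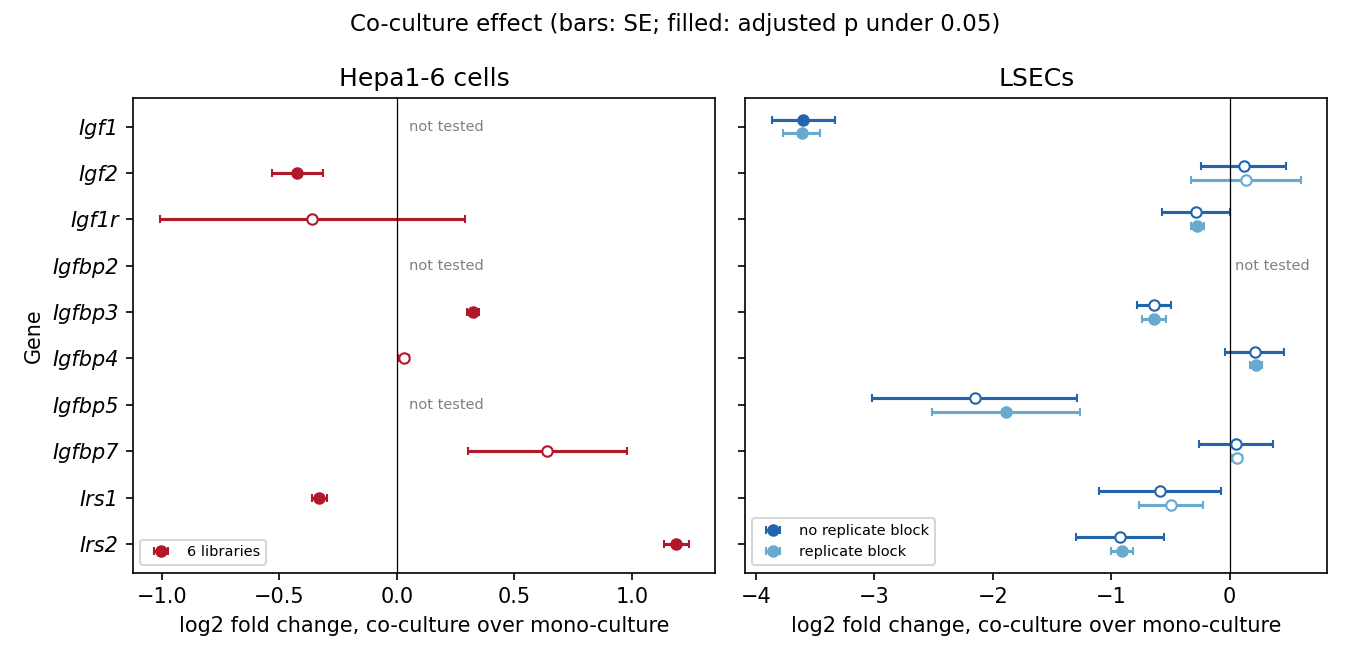
Log2 fold change of co-culture over mono-culture for each member in Hepa1-6 cells and in LSECs, with bars for the standard error of the edgeR fit (n = 3 per group) and, for LSECs, a second point from the fit with the replicate block; filled points passed an adjusted p of 0.05. Irs2 and Igfbp3 lie above 0 in Hepa1-6 cells and below 0 in LSECs, and Igf1 in LSECs lies at -3.60.

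The order of the 4 groups is given for Igf1, Igfbp3 and Irs2. Igf1 ran from LSECs alone (32.3 ± 1.93 CPM, SD, n = 3) to co-cultured LSECs (2.72 ± 0.864 CPM) and then to no count, and none of the neighbours with counts overlapped. Igfbp3 ran from co-cultured Hepa1-6 cells (548 ± 8.17 CPM) through Hepa1-6 cells alone (438 ± 6.33 CPM) and LSECs alone (16.1 ± 0.575 CPM) to co-cultured LSECs (10.7 ± 1.05 CPM), with no overlap between neighbours. Irs2 had the same order of groups, from 68.9 ± 4.9 and 30.2 ± 1.18 CPM to 18.5 ± 6.72 and 10.0 ± 3.3 CPM, and its lowest neighbours overlapped. The ratio of the Irs2 means of Hepa1-6 cells and LSECs was 1.63 in mono-culture and 6.87 in co-culture.

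The other genes of the pathway were read from a list of 40. In Hepa1-6 cells 37 were tested, and 10 rose and 5 fell. Over all 14796 genes tested there, 15.5% were called, 8.5% higher and 7.03% lower. The list's median log2 fold change was -0.01, beside 0.00 over all genes. The 5 lower calls became 1 to 3 when a library was left out and 0 by limma, and in the fit of all 12 libraries both directions had 0. Stc1, a secreted inhibitor of the protease that cleaves Igfbp4, rose from 83.7 to 153 CPM (log2 fold change 0.87, adjusted p = 8.99e-14). The gene of that protease, Pappa, was named after its values were seen. It averaged 0.0443 CPM in Hepa1-6 cells alone and 0.0626 CPM in co-culture. In LSECs it averaged 0.2 and 0.0887 CPM, and it was too low to be tested for co-culture in either cell. Jak2, the kinase of the growth hormone receptor, rose by 0.34 (adjusted p = 6.93e-09), and Socs3, a cytokine-induced inhibitor that also acts on insulin signalling, by 0.63 (adjusted p = 4.89e-06). Igf2bp1, an RNA-binding protein of Igf2 mRNA, rose by 0.16 (adjusted p = 0.00095). The kinases Akt2, Akt1 and Rps6kb1 and the adaptor Grb14 fell by 0.10 to 0.15 (adjusted p = 0.00559 to 0.0386). Igfbp1, the acute binding protein of liver, was named after its values were seen: it rose from 141 to 239 CPM (log2 fold change 0.76, adjusted p = 0.00885).

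In LSECs 35 of the 40 were tested, and 1 was called higher and 1 lower, where 3.09% of all genes were called. Socs3 rose from 24.4 to 122 CPM (log2 fold change 2.28, adjusted p = 0.00278) and Igf2bp1 fell from 10.0 to 3.5 CPM (log2 fold change -1.57, adjusted p = 0.00653). The Igf2bp1 call was the only lower one of the list, and that count was 0 without co-culture replicate 3 and by limma. The block called 8 higher and 8 lower, where 33.3% of all genes were called, 16.7% higher and 16.6% lower. Igf2r, the receptor that clears IGF2, was among those 8 lower ones, at 177 CPM alone and 111 CPM in co-culture (log2 fold change -0.68, adjusted p = 2.89e-05 with the block). Without the block Igf2r did not pass (-0.71, SE 0.43, adjusted p = 0.611). Its libraries overlapped, at 89.6, 224 and 216 CPM alone and 63.9, 141 and 129 CPM in co-culture. Eif4ebp1 had a smaller p with the block (-0.71, adjusted p = 1.66e-05) and did not pass without it either (adjusted p = 0.478). The list's median log2 fold change was 0.01, beside -0.03 over all genes.

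Between the mono-cultures, 39 of the list were tested, and 20 were higher in LSECs and 11 lower. Over all 16411 genes tested there, 70% were called, 37.2% higher and 32.8% lower. The list's median log2 difference was 0.60, beside 0.09 over all genes. Higher were the receptor-binding adaptor Grb10 (log2 difference 6.29, adjusted p = 3.77e-06), the growth hormone receptor Ghr (5.54, adjusted p = 5.27e-06), its feedback inhibitor Socs2 (2.90, adjusted p = 5.62e-06) and the transcription factor Foxo1 (2.66, adjusted p = 3.94e-05). Lower were Igfbp1 (-10.52, adjusted p = 1.03e-05), Igf2bp3 (-8.23, adjusted p = 4.08e-05), Stc1 (-4.89, adjusted p = 1.39e-05) and Igf2bp1 (-3.89, adjusted p = 3.26e-06). By the interaction test the co-culture effect differed between the cells for Socs3 (1.69 higher in LSECs, adjusted p = 0.00112) and Igf2bp1 (-1.69, adjusted p = 0.00014). That test called 2.35% of all genes.

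The transcript table gives the authors' estimate for each transcript. Igf1 was listed with 21 transcripts. Those that start at 87859052 carried 27.1%, 52.6% and 40.9% of its TPM in LSECs alone and 28.1%, 28.5% and 41.4% in co-culture. Other starts carried more in co-culture replicate 1 (87859057, 32.2%) and replicate 2 (87861111, 37.6%), and both of these had 0% in replicate 3. A main start of Igf1 in co-culture could thus not be read from these estimates. Shares in co-culture rest on 68 to 151 counts. For Igfbp7 the transcript of 1120 bases carried 95% to 95.2% in LSECs alone and 95% to 95.9% in co-culture. Igfbp3 transcripts that start at 7213923, the start of the window shown, carried 89.9% to 98.3% in Hepa1-6 cells of both cultures. In LSECs they carried 100%, 100% and 44.3% alone and 100%, 97.3% and 99.4% in co-culture. For Igf2 the estimates went from 0% to 100% for the start at 142657496 between Hepa1-6 libraries of the same line, so the promoter in use could not be read from them.

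The genes most like each member over the 12 libraries were found by Pearson's r of log2(CPM + 1), among 10593 genes. For Igf1 they were Cebpg (r = 0.992), Nek6 (0.992) and Rars (0.992). For Irs2 they were Slc22a23 (0.973), Mafg (0.952) and H2bc21 (0.95). For Igfbp3 they were Src, Mlph and Baiap2l1 (0.999 each), and for Igfbp7 Psap, Vamp3 and H2-Q6 (1.0 each). Those for Igf1r were Wwc2, Csgalnact1 and Arhgap31, and those for Irs1 were Cdk8, Tigar and Prpf4. The libraries come from only 2 cells, which alone gives many genes a high r, so these are descriptions over 12 libraries.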

How the data were processed

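The 12 libraries were made from 1 µg RNA with a stranded mRNA kit, with inserts of 200 to 400 bp, and sequenced in paired ends, per the labels' protocols. Per the submitters' processing notes, HISAT2 and StringTie were used on mm10. Versions, strand setting and annotation release are not given in the sources used here, so overlapping and antisense genes are uncertain. For every library the deposited gene table gives, per the file headers, an estimated count (expected count, whole numbers throughout), a TPM and an FPKM value. The counts gave all tests, the authors' TPM gave levels per length, and the FPKM values were not used. A second deposited table gave transcript TPM values, lengths and coordinates, which equal RefSeq GRCm38.p6 for the members.

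The first-named cell of each title was taken as the cell sequenced. The members, the pathway list of 40 genes and the marker lists were chosen with earlier results of these data known. All 10 members are named. From the pathway list up to 4 genes per direction with the smallest p are named in a comparison, and the 3 most-like genes needed a mean of 5 CPM and no predicted gene model.

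Each comparison was fitted on the whole table with edgeR 4.0.16 in R 4.3.3 (filterByExpr, TMM scaling, robust quasi-likelihood F-test, Benjamini-Hochberg adjustment over all genes tested, threshold 0.05). Each used its own 6 libraries, and the interaction used all 12. Standard errors are the log2 fold change over the square root of F. One TMM scale over the 12 libraries gave the CPM values. The tests were tried on simulated data. Alternatives were DESeq2 1.42.0, its size factors, no filter, limma 3.58.1 on log2(TPM + 1) and log2(TPM + 0.1), a replicate block, 1 fit over all libraries, LSEC replicates 2 and 3 only, and leaving out each library. All 10 members matched RefSeq promoter windows.

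The deviations of same-numbered LSEC libraries from their group means correlated at 0.892, 0.683 and 0.716, all above the limit of 0.1, although replicates 2 and 3 correlated as well when crossed (0.688 and 0.743). The labels give only the numbers, and the pairing comes from these correlations. They set replicate 1 apart but do not pair replicates 2 and 3 by number. For Hepa1-6 cells the same-numbered correlations were 0.081, 0.013 and -0.008, so the numbers were not used as pairs.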

Additional observations from a re-analysis of the deposited data

Results flagged for a closer look

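The co-culture effects on Irs2 and Igfbp3 differed between the cells by the interaction test. Irs2 lost this call in 10 of the 19 alternatives, while Igfbp3 kept it in all 19. The LSEC effect minus the Hepa1-6 effect was -2.08 on the log2 scale for Irs2, with values of 29.5 to 31.6 CPM in Hepa1-6 cells alone against 63.8 to 73.5 CPM in co-culture, and 10.7 to 22.4 CPM in LSECs alone against 6.26 to 12.4 CPM in co-culture. For Igfbp3 it was -0.93, with all 3 co-cultured Hepa1-6 libraries above and all 3 co-cultured LSEC libraries below their mono-cultures.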

How the results depend on the processing

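Of 437 values of members under the alternatives, 388 kept their direction and their side of the threshold, 17 lost a call, 18 gained one and 14 changed sign. The 4 calls in Hepa1-6 cells became 0 in a fit of all 12 libraries, and 3 to 4 when a library was left out. The single LSEC call became 6 with the replicate block, 2 by DESeq2, 2 in the fit of all 12 libraries and 8 with LSEC replicates 2 and 3 only. The 2 calls of the interaction became 1 to 2 when a library was left out. The 7 calls between the mono-cultures kept within 1.5 times under every alternative run. The causes were not tested. The block changed no other call of a member than those given beside the results; in Hepa1-6 cells, where the numbers pair nothing, it called 2536 genes, and between the mono-cultures 10631.

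The sign changed only for values that did not pass the test as reported, although Igfbp7 in LSECs passed with replicates 2 and 3 only (0.095). When a library was left out, Igf1r in Hepa1-6 cells ranged from -1.13 to 0.156 (above 0 without co-culture replicate 1), Igf2 in LSECs from -0.0674 (without mono-culture replicate 3) to 0.368, and Igfbp7 in LSECs from -0.219 (without co-culture replicate 1) to 0.366, with -0.0691 and -0.0735 without mono-culture replicates 2 and 3. The interaction for Igf1r was -0.226 and -0.117 by limma with pseudocounts of 1 and 0.1 and ranged from -0.413 to 0.845 when a library was left out. That for Irs1 was 0.147 by limma on log2(TPM + 1) and ranged from -0.642 (without LSEC mono-culture replicate 1) to 0.0692 (without replicate 3).

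Counts over all genes moved more. In Hepa1-6 cells 2298 genes were called, against 1410 and 1400 by limma and 41 in the fit of all 12 libraries. In LSECs 471 were called, against 5082 with the block, 1057 by DESeq2, 1443 in the fit of all 12 libraries, 5559 with replicates 2 and 3 only, and 146 to 490 when a library was left out. For the interaction 408 were called, against 3008 with the block, 1055 by DESeq2, 747 by limma on log2(TPM + 1), 3305 with LSEC replicates 2 and 3 only, and 216 to 726 when a library was left out. Depth limits Igfbp2, Igfbp5, Igf2 in LSECs, and Igf1r and Igfbp7 in Hepa1-6 cells, which have at most 64 counts in a library.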
